A study of Mus musculus with 6 samples.

Results

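The genes described here are 10 genes of hepatic nitrogen disposal, defined by a list of symbols: *Nags*, *Cps1*, *Otc*, *Slc25a15*, *Ass1*, *Slc25a13*, *Asl*, *Arg1*, *Gls2* and *Sds*. All 10 were among the 25403 genes listed, each on 1 row, and all 10 were among the 14496 genes that passed the filter on low counts. They were measured by bulk RNA-seq of poly(A) RNA from 6 livers of mice on a MASH diet, 3 labelled WT (C57BL6/J) and 3 labelled *Themis*-KO, a whole-body knockout of the gene for the adaptor protein THEMIS. Both groups had received this diet for 3 months from an age of 10 to 12 weeks. It held 2% cholesterol and drew 40% of its calories from fat and 20% from fructose. The sex of these livers is not given in the labels. The study describes its WT and *Themis*-KO mice on this diet as male. It also says that livers of both sexes served for gene expression, and gives no sex for the sequenced livers separately. The knockout line was obtained from another laboratory, and the study speaks of WT and *Themis*-KO littermates on chow; whether the livers sequenced here came from littermates is not stated for them. THEMIS was missing from all tissues by design, T cells included, so hepatocytes and other cells cannot be told apart as the place of its loss.

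Ammonia is toxic to the brain, and the liver converts it to urea for excretion by the kidney. The cycle begins in the mitochondria of periportal hepatocytes, the cells that first meet portal blood, continues in the cytosol, and depends on carriers that pass ornithine, citrulline and aspartate across the inner mitochondrial membrane. Ammonia that escapes it is captured as glutamine by a narrow band of pericentral hepatocytes.

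The *Themis* counts did not separate the labels. *Themis* was at 8.07, 25.6 and 12.0 CPM (reads of the gene scaled to a common library size by TMM) in the livers labelled WT and at 8.63, 7.74 and 9.97 CPM in those labelled *Themis*-KO, so the ranges overlapped (log2 fold change −0.79, SE 0.38, adjusted p = 0.199). The deleted part of the allele is not given in the sources used here, and reads outside it would still be counted. The directions below therefore rest on the labels, and a WT or *Themis*-KO replicate is a liver so labelled. Libraries held 22244002 to 25649767 counts in the WT group and 20679642 to 22397369 in the *Themis*-KO group. In WT replicates 1 and 2, *Gm28438* took 96.6% and 96.8% of the summed counts of *Gm28438* and the mitochondrial gene *mt-Nd3*. In each of the other 4 livers it took 2.2% to 3.26%. This split is called mitochondrial type below. The name is inferred from the counts of this pair of genes alone. The labels give no mitochondrial type, and none was tested by other means. A single strain is given for WT in the labels. Whether the genetic background differs within WT, or between WT replicates 1 and 2 and the *Themis*-KO group, was not tested. Such a difference in background would touch every difference between the labels given below.

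The livers labelled *Themis*-KO had lower levels of 5 of the 10 transcripts after TMM scaling, 1 of which, *Gls2*, was also lower relative to hepatocyte markers. *Gls2*, *Otc*, *Slc25a13*, *Asl* and *Ass1* fell, to between 60.4% and 71.1% of the WT mean, and *Cps1*, *Nags*, *Arg1*, *Slc25a15* and *Sds* had lower means without passing the test at an adjusted p of 0.05 (edgeR quasi-likelihood test, Benjamini-Hochberg over all 14496 genes). The 5 genes that fell are 5 of 10, where 4.14% of all tested genes fell, 4.97% rose and 9.11% did either. All 10 log2 fold changes were negative (7 of 10 when scaled to hepatocyte markers), against 49% of all tested genes, with a median of −0.50 over the 10 genes and of 0.01 over all tested genes. Of the lists described below, 10 of 11 hepatocyte markers and 10 of 11 pericentral markers were also negative after TMM scaling. So were 5 of 9 periportal markers and 3 of 8 tested genes of arginine and ornithine use. In 6 of the 10 every liver labelled *Themis*-KO lay below every liver labelled WT, which held for 16.9% of all tested genes, while 17.7% of them lay above in the same sense. At an adjusted p of 0.1 the count was 7 of 10, against 9.08% of all tested genes. The call at 0.05 depended on single livers: 0 of the 10 passed without WT replicate 1, without *Themis*-KO replicate 1 or without *Themis*-KO replicate 2, and 1 without WT replicate 2, 2 without WT replicate 3 and 7 without *Themis*-KO replicate 3, while 7 to 9 were lower at an unadjusted p under 0.05 in each of these fits. Lower at an unadjusted p under 0.05 were 7 of the 10 in the fit of all 6 livers, against 13.9% of all tested genes, and between 9.03% and 21% of all tested genes when 1 liver was left out. RNA from whole liver was measured, so fewer hepatocytes and less RNA per hepatocyte cannot be told apart.

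**Figure D1:**
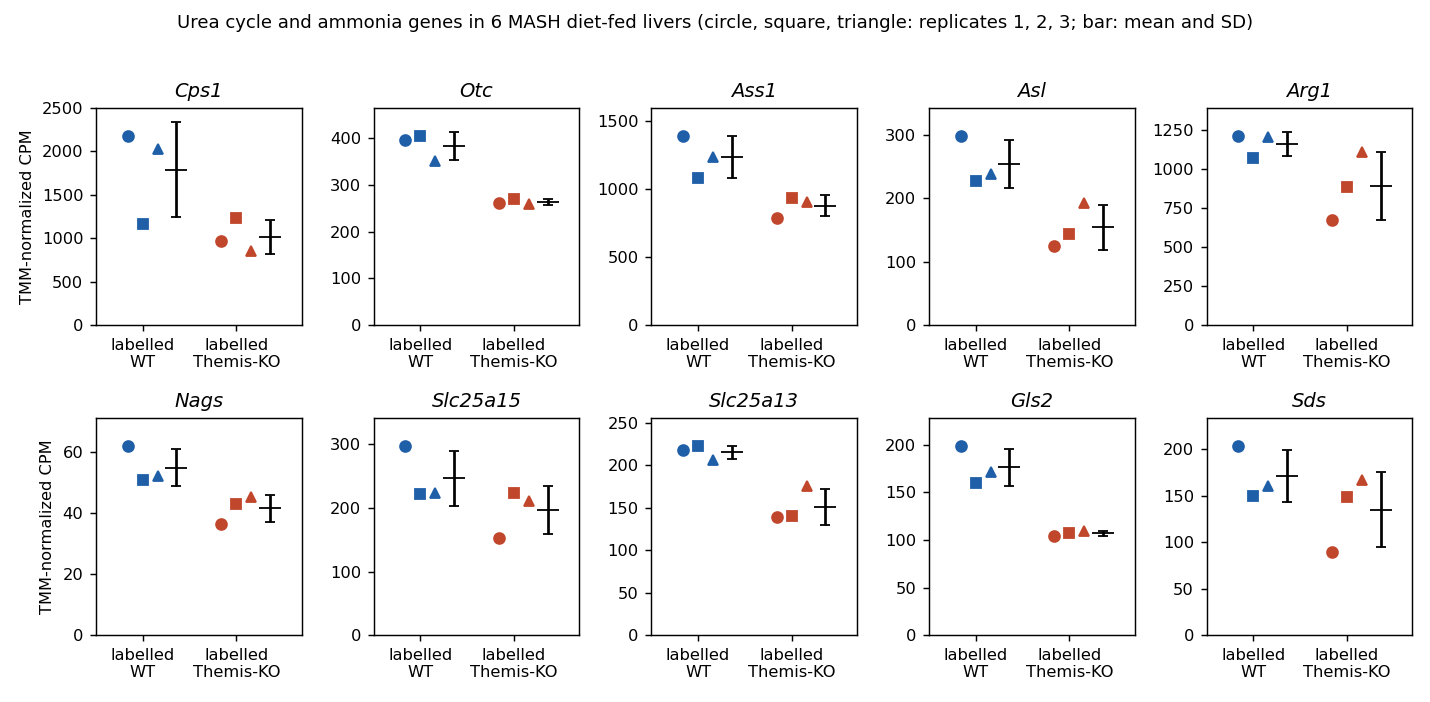
TMM-normalized CPM of the 10 nitrogen disposal genes in each of the 6 livers, one panel per gene with its own linear axis from 0; circles, squares and triangles are replicates 1, 2 and 3 of each label, and bars give the mean and SD of the 3 livers. In *Otc*, *Ass1*, *Asl*, *Nags*, *Slc25a13* and *Gls2* all 3 livers labelled *Themis*-KO lie below all 3 labelled WT, while in *Cps1*, *Arg1*, *Slc25a15* and *Sds* the labels overlap.

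The entry of ammonia into the cycle was examined first. NAGS makes N-acetylglutamate, the obligate activator of CPS1, and was the least expressed of the 10 genes per kilobase. *Nags* (chr11:102145513-102149477, + strand, GRCm38) was at 61.7, 50.6 and 51.9 CPM in the livers labelled WT and at 36.5, 42.8 and 45.2 CPM in those labelled *Themis*-KO. The groups did not overlap, and the change of −0.40 (SE 0.12, 95% interval −0.67 to −0.13) had an adjusted p of 0.0678. CPS1 is the mitochondrial enzyme that fixes ammonia as carbamoyl phosphate, the rate-limiting step of the cycle. *Cps1* (chr1:67123026-67231259, + strand) was at 2175, 1169 and 2025 CPM in the livers labelled WT and at 969, 1230 and 853 CPM in those labelled *Themis*-KO. WT replicate 2 lay below *Themis*-KO replicate 2, so the groups overlapped although the fold change, −0.81 (SE 0.24, 95% interval −1.37 to −0.26), was the farthest from 0 of the 10. Its adjusted p was 0.0706 in edgeR and 0.00493 in DESeq2, and *Cps1* had the widest spread between WT livers, with a coefficient of variation of 30.3% against 3.76% to 17.3% for the other 9 genes.

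OTC joins carbamoyl phosphate to ornithine and releases citrulline. *Otc* (chrX:10252305-10321024, + strand) was at 396, 404 and 350 CPM in the livers labelled WT and at 261, 270 and 259 CPM in those labelled *Themis*-KO. The 3 livers labelled *Themis*-KO lay close together, at 263 ± 6.17 CPM (SD, n = 3) against 383 ± 29 CPM in WT. The fall in *Otc* was −0.54 as a log2 fold change, with an SE of 0.089 and an adjusted p of 0.0223.

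The cytosolic enzymes showed the same ordering of the group means. ASS1 condenses citrulline with aspartate, which brings in the second nitrogen of urea. *Ass1* (chr2:31470207-31520672, + strand) was at 1388, 1077 and 1234 CPM in the livers labelled WT and at 790, 934 and 907 CPM in those labelled *Themis*-KO. The groups did not overlap, and *Ass1* fell by 0.49 (SE 0.12, adjusted p = 0.048), just inside the threshold. ASL splits argininosuccinate into arginine and fumarate. *Asl* (chr5:130011258-130029247, − strand) was at 298, 228 and 238 CPM in the livers labelled WT and at 124, 144 and 193 CPM in those labelled *Themis*-KO. It fell by 0.73 (SE 0.18, adjusted p = 0.0448), with *Themis*-KO replicate 3 nearest to the WT range.

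ARG1 hydrolyses arginine to urea and ornithine and closes the cycle. *Arg1* (chr10:24915221-24927484, − strand) was at 1213, 1073 and 1205 CPM in the livers labelled WT and at 676, 887 and 1113 CPM in those labelled *Themis*-KO. *Themis*-KO replicate 3 reached the WT range, and the change of −0.38 (SE 0.17, 95% interval −0.79 to 0.02) had an adjusted p of 0.177. Of the 6 fits that left out 1 liver, *Arg1* passed only without *Themis*-KO replicate 3, at −0.59 (adjusted p = 0.0202). In that fit the genes called lower over the whole table rose from 600 to 2039. Without *Themis*-KO replicate 1 the change in *Arg1* was −0.22 (adjusted p = 0.435). *Arg1* lies 3.74 Mb from *Themis* on the same chromosome, and of the 34 tested genes within 5 Mb of *Themis*, 1 fell and 1 rose. *Arg2*, the extrahepatic arginase isoform, was near the limit of detection, at 0.275, 0.288 and 0.71 CPM in the livers labelled WT and 0.807, 0.86 and 0.331 CPM in those labelled *Themis*-KO, and had an adjusted p of 0.436.

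The 2 carriers of the inner mitochondrial membrane differed in their test results. SLC25A13 (citrin) exports aspartate for ASS1 in exchange for glutamate. *Slc25a13* (chr6:6041218-6217173, − strand) was at 218, 222 and 206 CPM in the livers labelled WT and at 139, 140 and 176 CPM in those labelled *Themis*-KO. The groups did not overlap, and it fell by 0.51 (SE 0.11, adjusted p = 0.0383). SLC25A15 exchanges cytosolic ornithine for mitochondrial citrulline. *Slc25a15* (chr8:22375551-22398597, − strand) was at 296, 221 and 223 CPM in the livers labelled WT and at 153, 223 and 211 CPM in those labelled *Themis*-KO. The groups overlapped, with *Themis*-KO replicate 1 alone well below the WT range, and the change of −0.33 (SE 0.17, 95% interval −0.73 to 0.07) had an adjusted p of 0.227. The difference between the changes of the 2 carriers was not tested.

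Both genes that release ammonia upstream of the cycle were also lower on average. GLS2 is the liver-type glutaminase, which frees ammonia from glutamine in periportal mitochondria. *Gls2* (chr10:128194457-128210004, + strand) was at 198, 160 and 171 CPM in the livers labelled WT and at 104, 107 and 109 CPM in those labelled *Themis*-KO. *Gls2* had the smallest adjusted p of the 10 genes: it fell by 0.72 (SE 0.099, adjusted p = 0.0131), its livers labelled *Themis*-KO had a coefficient of variation of 2.26%, and it passed the test in 3 of the 6 fits that left out 1 liver. SDS deaminates serine to pyruvate and ammonia. *Sds* (chr5:120476526-120483932, + strand) was at 203, 150 and 160 CPM in the livers labelled WT and at 89.8, 149 and 167 CPM in those labelled *Themis*-KO. *Themis*-KO replicates 2 and 3 lay within or just below the WT range, and the change of −0.34 (SE 0.23, 95% interval −0.86 to 0.18) had an adjusted p of 0.338. Exons of *Gls2*, *Nags* and *Sds* overlap genes on the opposite strand, of which *Spryd4* had 398 to 601 counts, *Gm11586* 9 to 40 counts and *Plbd2* 1307 to 1809 counts per liver. Whether the counting used strand is not given in the sources used here, so reads of these pairs may not be fully told apart.

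The livers differed among themselves within each label. *Themis*-KO replicate 1 had the lowest value of all 6 livers in 8 of the 10 genes and *Themis*-KO replicate 3 in the other 2, *Otc* and *Cps1*. Among the livers labelled WT, replicate 2 was the lowest in 8 genes and replicate 3 in 2. The 10 genes together took 0.602%, 0.445% and 0.579% of all counts in the livers labelled WT and 0.351%, 0.442% and 0.413% in those labelled *Themis*-KO. WT replicate 2 and *Themis*-KO replicate 2 thus nearly met. Without *Cps1* the shares were 0.399%, 0.336% and 0.379% against 0.249%, 0.31% and 0.326%, and again every *Themis*-KO liver was below every WT liver.

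Levels were also ordered per kilobase of exon (CPM divided by the length of all annotated exons). In the livers labelled WT *Arg1* (mean 522 CPM per kb, range 482 to 545) and *Ass1* (511, range 446 to 575) were at the top and did not differ beyond their spread. *Cps1* followed at 322 CPM per kb, below both in every WT liver. *Sds* (101 CPM per kb) and *Otc* (90.4 CPM per kb) came next with overlapping ranges. *Slc25a13*, *Asl* and *Gls2*, at 56.6, 52.7 and 50.7 CPM per kb, could not be ordered, and *Slc25a15*, at 43.8, overlapped *Asl* and *Gls2* but not *Slc25a13*. *Nags* was lowest, at 19.3 CPM per kb (range 17.8 to 21.8), apart from all others. In the livers labelled *Themis*-KO the same genes held the first 6 places and the last, and *Slc25a15* came seventh, ahead of *Asl* and *Gls2*. Per kilobase of coding sequence 5 of the 10 WT places were kept, the first 3 among them.

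The promoter windows from RefSeq used here covered 5 of the 10 genes, *Otc*, *Ass1*, *Nags*, *Slc25a15* and *Slc25a13*. The 250 bases upstream of the start site (GRCm38.p6, 5′ to 3′ on the strand of the gene) are shown for 2 genes that fell, *Otc* and *Slc25a13*, and for 2 that did not pass the test, *Nags* and *Slc25a15*, since promoter sequence is where their regulation by hepatocyte transcription factors is usually sought. Capitals mark matches to the motifs searched, on either strand. The *Otc* window lies at chrX:10252055-10252304 (+), that of *Slc25a13* at chr6:6217174-6217423 (−), that of *Nags* at chr11:102145263-102145512 (+) and that of *Slc25a15* at chr8:22398622-22398871 (−). RefSeq listed 2 start sites for *Slc25a15*, and the one nearest the principal GENCODE transcript start was used. Its window does not adjoin the GENCODE end of the gene at 22398597, and its matches are given for that window alone.
Otc: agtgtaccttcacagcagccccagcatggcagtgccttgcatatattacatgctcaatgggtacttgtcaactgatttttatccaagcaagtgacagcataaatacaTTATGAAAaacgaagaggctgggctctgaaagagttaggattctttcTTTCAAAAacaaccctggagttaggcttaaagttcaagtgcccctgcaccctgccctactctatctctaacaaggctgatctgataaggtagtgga
Slc25a13: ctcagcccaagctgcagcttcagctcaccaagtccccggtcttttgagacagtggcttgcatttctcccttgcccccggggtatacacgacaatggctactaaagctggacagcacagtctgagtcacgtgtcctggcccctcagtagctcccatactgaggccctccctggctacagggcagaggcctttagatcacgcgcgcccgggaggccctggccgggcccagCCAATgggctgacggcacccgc
Nags: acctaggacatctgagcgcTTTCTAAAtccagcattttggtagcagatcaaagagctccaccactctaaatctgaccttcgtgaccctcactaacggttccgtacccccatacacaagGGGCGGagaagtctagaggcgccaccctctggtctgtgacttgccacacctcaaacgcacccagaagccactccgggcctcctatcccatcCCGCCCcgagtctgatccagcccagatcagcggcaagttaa
Slc25a15: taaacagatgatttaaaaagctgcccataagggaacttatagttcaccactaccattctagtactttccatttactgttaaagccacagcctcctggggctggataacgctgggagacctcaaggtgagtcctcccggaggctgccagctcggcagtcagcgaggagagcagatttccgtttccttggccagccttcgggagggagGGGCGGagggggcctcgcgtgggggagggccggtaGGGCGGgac

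The motifs were TTNNGNAA (C/EBP), TGACGTCA (CRE), CAAAGTNCA (HNF4), AGAACA (glucocorticoid receptor half-site), CCAAT and GGGCGG (GC box). *Otc* held 2 C/EBP matches, starting at positions −143 and −96 from the start site, and *Nags* held 1 at −231; 36.8% of all 32851 promoter windows of this length held at least 1. *Slc25a13* held 1 CCAAT at −22, against 33.8% of all windows. The GC box, found in 32.7% of all windows, occurred 2 times each in *Nags* and *Slc25a15* and 1 time in *Ass1*. The *Ass1* window runs into the gene as annotated by GENCODE, and its match lies inside that gene. CRE and HNF4 matches, present in 1.55% and 1.19% of all windows, and the glucocorticoid half-site, present in 16.1%, were found in none of the 5 windows. The GC content of the 5 windows was 43.6% in *Otc* and between 55.6% and 75.6% in the other 4, against a median of 52.4% over all windows. These are matches of letters, with no measurement of binding.

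The surroundings of the cycle were described with 7 further lists of genes. In the pericentral ammonia capture list 2 of 4 tested genes fell and the median log2 fold change was −1.16. GLUL, glutamine synthetase, is the pericentral scavenger of ammonia. *Glul* was at 1322, 1685 and 1322 CPM in the livers labelled WT and at 1049, 895 and 1261 CPM in those labelled *Themis*-KO, without overlap, but with an adjusted p of 0.111 (log2 fold change −0.43, SE 0.16). OAT links ornithine to glutamate, and *Oat* fell: it was at 881, 1160 and 711 CPM against 404, 381 and 412 CPM (log2 fold change −1.20, SE 0.17, adjusted p = 0.0146). *Slc1a2*, a glutamate transporter of pericentral hepatocytes, was at 164, 170 and 139 CPM against 65.8, 68.5 and 83.2 CPM, and fell by 1.12 (SE 0.12, adjusted p = 0.00936).

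Among 17 genes that supply amino groups, 5 fell (*Hal*, *Prodh2*, *Amdhd1*, *Amt* and *Prodh*) and 12 did not pass, with a median of −0.43. *Hal*, histidine ammonia-lyase, releases ammonia from histidine, and its 174, 141 and 129 CPM in the livers labelled WT compared with 51.6, 68.4 and 66.9 CPM in those labelled *Themis*-KO. It fell by 1.25 (SE 0.15, adjusted p = 0.0112). *Amdhd1*, a later step of histidine breakdown, fell by 0.56 (adjusted p = 0.0373), and *Prodh2*, a hydroxyproline dehydrogenase, by 0.63 (adjusted p = 0.0255). *Glud1*, the mitochondrial glutamate dehydrogenase and a main source of ammonia from amino acids, was at 855, 919 and 827 CPM against 979, 865 and 879 CPM; its change of 0.07 (95% interval −0.15 to 0.29) had an adjusted p of 0.667.

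In the transport and support list 3 of 10 tested genes fell. *Car5a*, the mitochondrial carbonic anhydrase that provides bicarbonate to CPS1, was at 60.1, 71.3 and 56.4 CPM against 23.3, 20.1 and 42.8 CPM, and fell by 1.12 (SE 0.26, adjusted p = 0.0421). *Slc38a3*, the glutamine transporter of the hepatocyte membrane, fell by 0.91 (SE 0.14, adjusted p = 0.0205), and the neutral amino acid transporter *Slc38a4* by 0.62 (SE 0.13, adjusted p = 0.0369). *Slc25a2* and *Slc14a1* of this list had too few counts to be tested. Of the 8 tested genes of arginine and ornithine use, *Nos3*, the endothelial nitric oxide synthase, rose by 0.75 (SE 0.18, adjusted p = 0.0429) and 7 did not pass. Of 10 regulators, *Hnf4a*, *Cebpa* and *Ppargc1a* among them, 5 had an unadjusted p under 0.05 in edgeR, against 30.7% of all tested genes in either direction, and the smallest adjusted p, that of *Cebpb*, was 0.0599. Their median was −0.22.

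**Figure D2:**
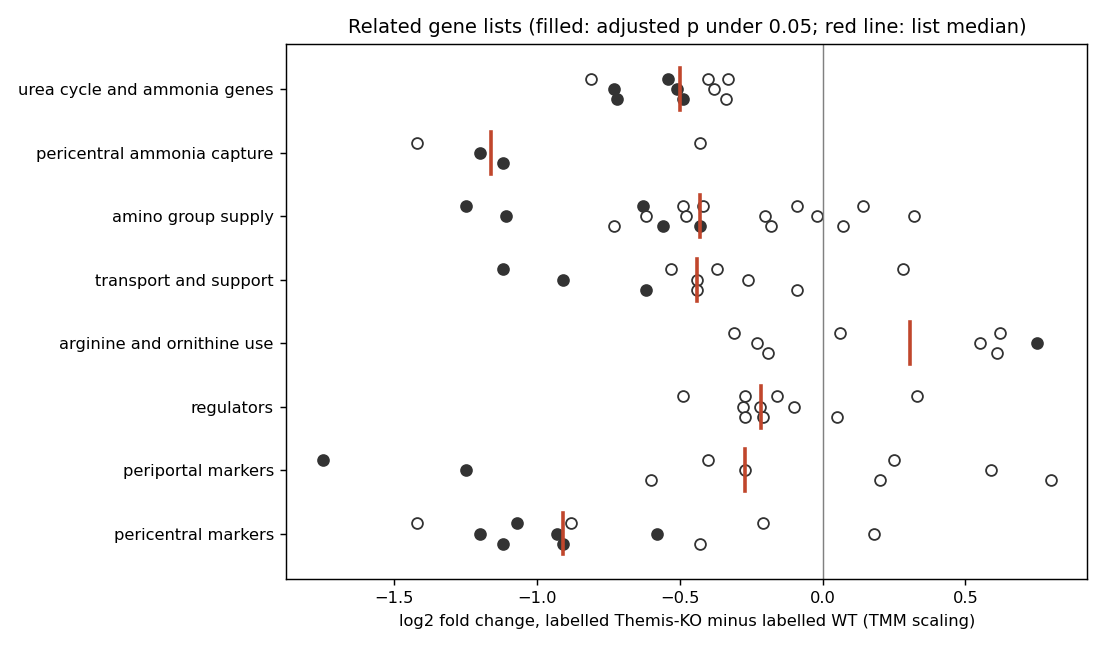
Log2 fold change, *Themis*-KO against WT, of each tested gene of the 10 nitrogen disposal genes and of the 7 further lists; filled points passed an adjusted p of 0.05, open points did not, and red lines are list medians. The medians run from −1.16 in pericentral ammonia capture to 0.31 in arginine and ornithine use, and that of the 10 nitrogen disposal genes is −0.50.

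Zonation markers were read beside the periportal genes. Of 9 periportal markers, *Sult5a1* and *Hal* fell and 7 did not pass, with a median of −0.27 and a range from −1.75 to 0.80. Of 11 pericentral markers 6 fell, among them *Rgn* (−0.91, adjusted p = 0.00936), *Slc1a2* and *Cyp1a2* (−0.93, adjusted p = 0.0131), with a median of −0.91. *Hal*, *Glul*, *Oat*, *Slc1a2* and *Rhbg* stand in more than 1 of these lists. *Cyp2e1*, among the 6 pericentral markers that fell, is also 1 of the 11 hepatocyte markers used below. The difference between the zones was not tested.

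Summed marker levels of hepatocytes, cholangiocytes, stellate cells, endothelial cells and disease-associated hepatocytes did not overlap between the labels. Those of macrophages, T cells and B cells did. Of all single tested genes, 16.9% lay lower without overlap and 17.7% higher, and no such share was computed for sums. The summed level of 11 hepatocyte markers was 74766 to 81587 CPM in the livers labelled WT and 60749 to 62771 CPM in those labelled *Themis*-KO. *Alb* alone made up 39776 to 43023 CPM and 33597 to 37327 CPM of these sums (adjusted p = 0.185). Of the 11 markers 3 fell and 8 did not pass. Of 8 tested cholangiocyte markers 2 rose, and the sum over all 9 listed was 168 to 208 CPM against 400 to 632 CPM. Of 11 stellate cell markers 5 rose (522 to 585 CPM against 772 to 800 CPM in sum). Of 12 macrophage markers 3 rose (408 to 705 CPM against 687 to 892 CPM). Of 7 markers of disease-associated hepatocytes, mostly genes that the study names as such, 6 rose (140 to 246 CPM against 369 to 654 CPM). Of 8 endothelial markers 1 rose and 7 did not pass, 2 of the 8 were negative, and the median was 0.14. Their sums nearly met (215 to 235 CPM against 237 to 267 CPM). The sum without the gene that rose was not computed. Among 6 tested T cell markers *Cd4* fell. The summed level of all 8 listed T cell markers was 4.46 to 6.08 CPM against 3.44 to 7.95 CPM. The 5 B cell markers stood at 11.6 to 18.3 CPM against 7.23 to 15.5 CPM. *Cd3d* and *Cd3g* had too few counts to be tested but are part of the T cell sum. The part that these shifts have in the values of the 10 genes was not tested, apart from the scaling that follows.

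The 10 genes were therefore also expressed relative to the hepatocyte markers. When libraries were scaled by the mean log2 level of these 11 markers instead of by TMM, the median of all tested genes moved to 0.385 and the median of the 10 genes to −0.12. *Gls2* still fell, by 0.34 (SE 0.11, 95% interval −0.58 to −0.10, adjusted p = 0.0296), and the other 9 did not pass. On this scale 2 of the 10 were without overlap. The share of all tested genes without overlap was not computed on it, so this count has no background to be read against. *Cps1* was at −0.43 (adjusted p = 0.129), *Asl* at −0.33 (adjusted p = 0.144), and *Otc*, *Slc25a13*, *Ass1* and *Nags* lay between −0.16 and −0.01. *Slc25a15* and *Sds* turned to 0.06 each, and *Arg1* stood at 0.00019. Outside the 10 genes, *Oat* (−0.82, adjusted p = 0.00823), *Hal* (−0.86, adjusted p = 0.00496), *Slc1a2* (−0.74, adjusted p = 0.00608), *Slc38a3* (−0.52, adjusted p = 0.0185) and *Car5a* (−0.74, adjusted p = 0.0496) were also lower relative to these markers, whereas *Glud1* was higher by 0.44 (adjusted p = 0.0192), close to the median of all tested genes on this scale. *Serpina1c* and *Cyp2e1* moved most among the markers, by −1.03 and −1.07 on the TMM scale, against −0.46 to 0.05 for the other 9. With those 9 alone, a choice made after the values were seen, the medians were 0.240 over all tested genes and −0.26 over the 10 genes, all 10 were below 0 and *Gls2* fell by 0.49 (adjusted p = 0.0161); *Otc* (−0.31, adjusted p = 0.0666), *Cps1* (−0.58, adjusted p = 0.0825) and *Asl* (−0.48, adjusted p = 0.0835) came next, and *Car5a* (−0.88, adjusted p = 0.0529) and *Glud1* (0.30, adjusted p = 0.109) no longer passed. The markers were themselves lower in the livers labelled *Themis*-KO, and whether they follow the number of hepatocytes or the RNA in each was not tested.

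**Figure D3:**
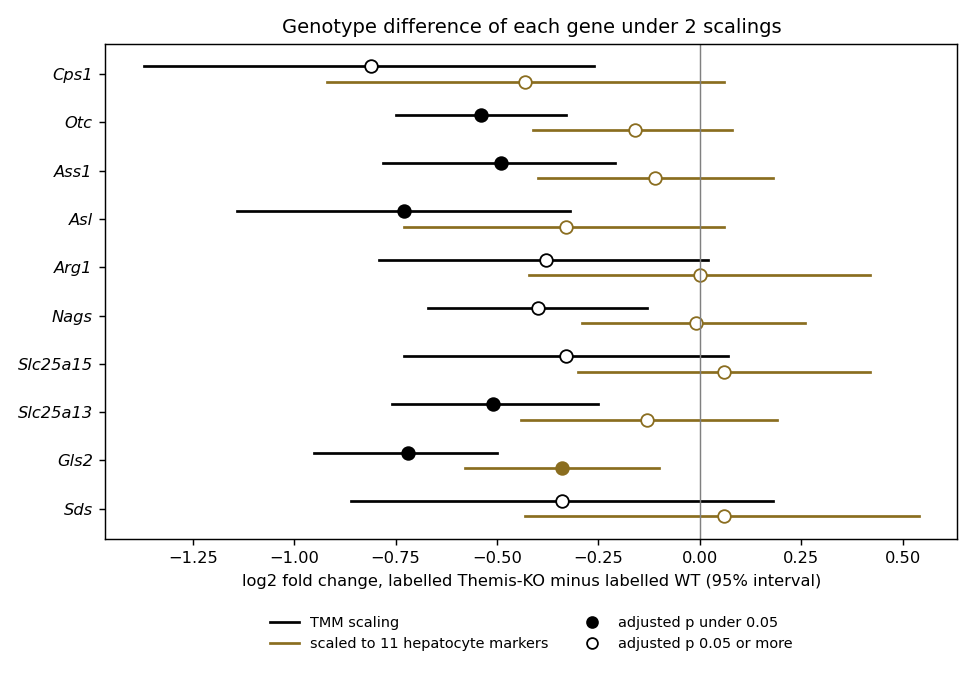
Log2 fold change of the 10 nitrogen disposal genes, *Themis*-KO against WT, with 95% intervals, after TMM scaling and after scaling by the mean log2 level of 11 hepatocyte markers. All 10 values lie below 0 after TMM scaling, from −0.81 to −0.33, and *Gls2* alone has an interval that leaves out 0 after hepatocyte marker scaling.

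The 4 livers that share a mitochondrial type allowed the same contrast with WT replicate 3 alone as reference, on the assumption that it varies like the 3 livers labelled *Themis*-KO. The median of the 10 genes was then −0.46, all 10 were below 0 and 6 were lower at an unadjusted p under 0.05, against 4.55% of all tested genes, with 0 past an adjusted p of 0.05 in edgeR. With mitochondrial type as a covariate in all 6 livers the median was −0.44, 6 were lower at an unadjusted p under 0.05, against 5.11% of all tested genes, and again 0 passed. With the covariate 3 of all tested genes passed as lower, against 600 in the fit without it. Only livers labelled WT had the other mitochondrial type, and why so few genes passed was not tested.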

How the data were processed

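Livers of 3 mice labelled WT and 3 labelled *Themis*-KO, each a separate sample on the MASH diet, were compared. The authors sequenced poly(A) libraries as paired ends, trimmed them with cutadapt 2.3, mapped them to GRCm38 with STAR 2.7.8a and deposited estimated counts per gene from RSEM 1.3.3, without normalization (tool versions from the submitters' processing notes). The deposited values are whole numbers. RSEM divides reads that fit several genes, so levels of close copies depend on each other. The annotation release and the strand setting are not given in the sources used here. Coordinates were taken from GENCODE vM21 by gene ID, which 25321 of 25403 genes matched.

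Counts were filtered with filterByExpr (10907 genes did not pass), scaled by TMM and fitted with edgeR 4.0.16 in R 4.3.3 (glmQLFit, glmQLFTest, all 6 livers, no covariate). The p-values were adjusted by Benjamini-Hochberg over 14496 genes, with a threshold of 0.05. SEs were derived from the F statistic. The study used DESeq2, here version 1.42.0 and an alternative. CPM were computed after TMM with no prior count. The smallest exact two-sided permutation p for 3 livers against 3 is 0.1, and the 6 genes without overlap reached it. The study speaks of 3 pairs of livers, but neither it nor the labels say what makes a pair. Same-numbered livers' deviations from the group means correlated at 0.0102, −0.309 and −0.183. No libraries were duplicates: chi-square over degrees of freedom was at least 9.8 for any 2. On simulated counts for 14338 genes, edgeR recovered 191 of 200 genes changed by 1 on the log2 scale, with 12 false calls, and DESeq2 189, with 9. The simulation gave all genes a common dispersion, had no outlying livers and changed only genes above a minimum level. It is a check of the code and does not measure power for the smaller changes of the 10 genes.

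The members and all lists were chosen with earlier results of these data known. All 10 members are named. Also named are *Themis*, *Glul*, *Oat*, *Arg2*, *Glud1*, *Car5a*, *Hal*, and up to 3 genes with the smallest adjusted p under 0.05 in each list. *Amt*, *Prodh*, *Hnf4a*, *Cebpa*, *Cebpb*, *Ppargc1a*, *Rhbg*, *Cd4*, *Cd3d*, *Cd3g*, the overlapping genes, *mt-Nd3* and *Gm28438* were named after their values were seen. Promoter windows came from RefSeq. *Serpina1c*, *Cyp2e1* and *Alb* were named likewise after their values were seen. Alternatives were RLE, upper quartile, total count and hepatocyte marker scaling, no filter, at least 10 counts in every liver, DESeq2, the replicate number as a block, mitochondrial type as a covariate, each liver left out and a threshold of 0.1. The fit of 4 livers and the scaling by 9 markers were added after the data were seen.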

Additional observations from a re-analysis of the deposited data

How the results depend on the processing

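The 10 genes kept negative log2 fold changes under every setting run except scaling by 11 hepatocyte markers, where 7 did and *Arg1* (0.00019), *Slc25a15* (0.06) and *Sds* (0.06) were above 0. The count of the 10 that fell, 5, was 3 with upper quartile or total count scaling, 1 with scaling by 11 or 9 hepatocyte markers, and 0 with the replicate block, the mitochondrial covariate or the 4 livers of 1 mitochondrial type. It was 5 with RLE or at least 10 counts, and 7 without a filter or with DESeq2. Leaving out 1 liver gave 0 to 7. The count without overlap, 6, was 2 with 11 and 3 with 9 hepatocyte markers, where the share over all tested genes was not computed. Coding length kept 5 of 10 places in the order of levels. With the block, which changed the calls of all 5 genes that fell, adjusted p was 0.0668 for *Gls2* and 0.0909 to 0.14 for the other 4. The study speaks of 3 pairs of livers without saying whether the numbers mark them, and same-numbered livers did not deviate together, so which fit suits the design is not settled by these values.

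Genes lower over the whole table, 600, were 387 with total counts, 214 with 11 hepatocyte markers, 246 with 9, 967 without a filter, 1084 with DESeq2, 45 with the replicate block, 3 with the covariate, 9 in 4 livers and 1316 at a threshold of 0.1. Genes higher, 721, were in the same order 1449, 5987, 3010, 1212, 1273, 17, 0, 0 and 1664. Leaving out 1 liver gave 12 to 2039 lower and 8 to 2228 higher, the fewest when *Themis*-KO replicate 1 was left out and the most when *Themis*-KO replicate 3 was. In the related lists the 15 lower genes were 9 with 9 hepatocyte markers, 27 without a filter, 28 with DESeq2, 1 with the block, 0 with the covariate or in 4 livers, and 0 to 34 with 1 liver left out. The 1 higher gene was 6 with total counts, 15 with 11 and 9 with 9 hepatocyte markers, 5 without a filter, 7 with DESeq2, 0 with the block, the covariate or 4 livers, and 0 to 6 with 1 liver left out. *Arg2* was −0.08 with the covariate and −0.10 in 4 livers. The causes of these shifts were not tested. The block, the covariate and the left-out livers leave fewer samples or residual degrees of freedom. What part that had was not tested either, and both counts rose when *Themis*-KO replicate 3 was left out. Precision is set by 3 livers a group.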
